A study of Mus musculus with 16 samples.

Results

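The 44 genes described here encode the machinery of autophagy, together with 4 genes of the lysosome (*Lamp1*, *Lamp2*, *Ctsd* and *Ctsl*) and the transcription factor genes *Tfeb* and *Tfe3*. They were chosen as a list of gene symbols, and each was found by its Entrez identifier among the 24454 genes of the deposited counts. All 44 were present and all passed the filter on low counts, with between 159 and 93744 reads for a gene in a mouse. Each of 16 mice, 3 months old, gave its own RNA library from the *gastrocnemius*, a calf muscle, and none were pooled. *HSALR* mice are a model of myotonic dystrophy type 1 (line LR20b, homozygous, FVB/N background) and carry a transgene of human skeletal actin with an expanded CTG repeat, which is active in skeletal muscle and in no other tissue. Of these, 5 mice were given vehicle and 5 were given AICAR. FVB/N mice without the transgene served as controls, 3 with vehicle and 3 with AICAR. AICAR was given at 500 mg/kg for 7 days, and is converted in cells to an analogue of AMP that activates the AMP-activated protein kinase AMPK. All *HSALR* mice come from a single transgenic line, so the transgene and anything else that distinguishes this line from FVB/N mice cannot be told apart. The human transgene has no row in the counts, so the genotype labels could not be checked by it.

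Autophagy encloses cytoplasm, aggregates or whole mitochondria in a double membrane, the autophagosome, which fuses with the lysosome, where acid hydrolases digest the content. The ULK1 complex starts the process, a class III PI3-kinase complex marks the site with the lipid PI3P, ATG2 and ATG9 supply lipid, and 2 ubiquitin-like systems attach the ATG8 proteins (LC3 and GABARAP) to the growing membrane, where cargo receptors such as p62 bind them. AMPK and mTORC1 act on this system mainly by phosphorylation, AMPK activating ULK1 and mTORC1 holding back both ULK1 and TFEB, the transcription factor of lysosomal genes. In skeletal muscle, autophagy removes damaged mitochondria and supplies amino acids on fasting. The counts measure mRNA only, so protein, phosphorylation and autophagic flux were not measured.

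Promoter sequences are shown for the lysosomal genes *Lamp1* and *Ctsd* and the autophagy receptor gene *Optn*, because these 3 genes were higher after AICAR in both genotypes (described further on). TFEB and its relatives bind the letters CACGTG, which read the same on both strands, and prefer them preceded by T or followed by A (TCACGTG or CACGTGA, which contain the shorter motif). Each sequence runs 5′ to 3′ on the strand of the gene from 250 bases before to 50 bases after the RefSeq transcription start (GRCm38.p6), with each CACGTG in capitals. The promoter of *Lamp1*, which encodes a major protein of the lysosomal membrane, lies at chr8:13158911-13159210 (plus strand). It holds 4 copies of the motif:
Lamp1: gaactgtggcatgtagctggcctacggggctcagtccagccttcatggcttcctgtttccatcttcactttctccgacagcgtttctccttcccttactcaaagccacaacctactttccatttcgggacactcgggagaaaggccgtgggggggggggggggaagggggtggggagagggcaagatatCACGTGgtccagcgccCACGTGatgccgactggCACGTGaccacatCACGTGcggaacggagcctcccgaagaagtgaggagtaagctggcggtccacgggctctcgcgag
That of *Ctsd*, which encodes the lysosomal protease cathepsin D, lies at chr7:142387778-142388077 (minus strand). It holds 2 copies:
Ctsd: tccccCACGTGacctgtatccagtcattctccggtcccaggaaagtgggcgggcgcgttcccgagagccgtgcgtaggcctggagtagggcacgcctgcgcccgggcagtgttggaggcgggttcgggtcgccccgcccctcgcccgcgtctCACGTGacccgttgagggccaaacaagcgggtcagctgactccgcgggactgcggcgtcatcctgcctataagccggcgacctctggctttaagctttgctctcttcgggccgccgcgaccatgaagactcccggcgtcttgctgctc
For *Optn* the RefSeq table gives a single window, chr2:5064068-5064367 (minus strand). It belongs to a start that lies inside the outermost end of the gene at 5064399, so the bases before that outer end were not searched. This window holds no copy:
Optn: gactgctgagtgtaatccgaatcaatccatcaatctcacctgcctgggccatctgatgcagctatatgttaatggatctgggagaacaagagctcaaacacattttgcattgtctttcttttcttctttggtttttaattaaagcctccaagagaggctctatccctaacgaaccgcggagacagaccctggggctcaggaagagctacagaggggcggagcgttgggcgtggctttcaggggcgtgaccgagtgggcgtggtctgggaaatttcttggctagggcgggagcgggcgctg
Of the 37 genes on the list with a promoter in the RefSeq table, 8 held CACGTG (*Atg14*, *Atg3*, *Atg5*, *Atg7*, *Bnip3*, *Ctsd*, *Ctsl* and *Lamp1*), and 5 held the longer form. Among all 27025 genes with a promoter of this length, 8.09% held CACGTG and 4.29% the longer form. Of the 8 genes with CACGTG, *Lamp1* and *Ctsd* alone passed the threshold given below for AICAR against vehicle. These matches describe letters in a window, not bound sites.

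Between 64890014 and 81987726 reads were assigned to genes in each library. Values are given as normalised CPM, the reads of a gene relative to the library total after TMM scaling, and fold changes as log2 values with their SE from edgeR's quasi-likelihood fit to all 16 mice. A gene is called different at an adjusted p under 0.05 (Benjamini-Hochberg over the 15487 genes tested), and p-values measure the spread between mice. The muscle fibre markers added up to between 125767 and 175021 normalised CPM in every mouse. None of the 10 was at 0 throughout a group. This sum does not show differences of single markers. Between *HSALR* and control mice after vehicle, 3 of the 10 were called higher and 2 lower (log2 fold changes from -1.37 to 1.52). After AICAR, 3 were called higher and 1 lower in *HSALR* mice. For AICAR against vehicle, 1 was called lower in *HSALR* mice, and 0 were called in control mice. The part of these differences in the results was not tested. Epidermal RNA was unevenly spread, and *Krt14*, a skin keratin, was above 1 normalised CPM in 4 of 5 vehicle-treated *HSALR* mice, in 0 of 5 AICAR-treated *HSALR* mice, in 1 control mouse after vehicle and in 1 after AICAR. The 8 epidermal markers together reached 187 normalised CPM in *HSALR* mice after vehicle and did not exceed 0.371 after AICAR, with 2 of them at 0 there (*Flg2* and *Dsg1a*). Fewer cells of a type and less RNA per cell cannot be told apart in whole muscle. Whether reads were counted by strand is not given in the sources used here, and 15 of the 44 genes have exons that overlap a gene on the opposite strand. Those named below include *Uvrag*, *Optn*, *Lamp1*, *Map1lc3b*, *Gabarapl1*, *Sqstm1*, *Becn1* and *Atg9a*, and another 4 (*Atg9a* again, *Pink1*, *Ctsl* and *Ctsd*) overlap a gene on the same strand, so their counts could hold reads of a neighbour.

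All 44 genes were expressed in the muscle, over a wide range. In control mice after vehicle, the mean level per length ran from 1.76 CPM per kb of exon for *Atg16l2* to 488 CPM per kb for *Pink1*, the kinase that tags damaged mitochondria. Next to *Pink1* stood *Ctsd* (288 CPM per kb), *Lamp1* (268) and *Sqstm1*, the gene of p62 (210). The mRNAs of the ATG8 proteins lay between 45.5 and 116 CPM per kb, and those of the conjugation machinery, the ATG4 proteases included, between 1.76 and 16.4 CPM per kb. Of the 44 genes, 28 were called in at least 1 of the 4 pairwise comparisons and 16 in none, and *Uvrag* alone reached a log2 fold change of 1.

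**Figure D1:**
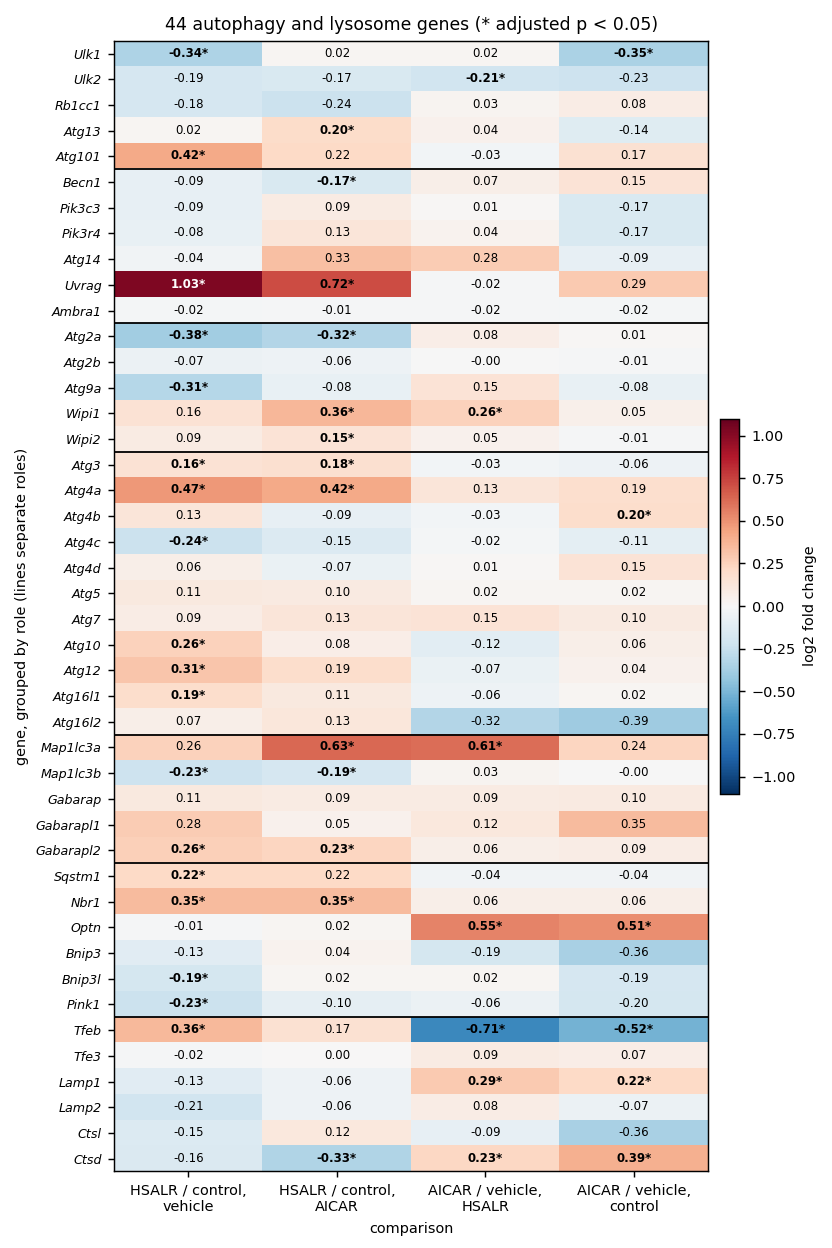
Log2 fold change of each of the 44 genes (rows, ordered by role) in the 4 pairwise comparisons (columns), printed in each cell and coloured from blue (lower) to red (higher), with an asterisk where the adjusted p was under 0.05. Within its column the strongest cell is *Uvrag* in each of the first 2 (1.03 and 0.72) and *Tfeb* in each of the last 2 (-0.71 and -0.52, the latter next to 0.51 for *Optn*).

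The first comparison asked which of these genes differ between *HSALR* and control muscle without the drug. Of the 44 genes, 11 were higher and 7 lower in *HSALR* mice, against 15.4% of all genes tested called higher and 11.5% called lower. The median log2 fold change of the 44 was 0.0033 and that of all genes tested 0.0097. Most of these differences were small, *Uvrag* being the exception. The 4 endothelial markers were all called lower in *HSALR* mice, with a summed level of 155 to 204 normalised CPM in *HSALR* mice after vehicle and 234 to 261 in control mice. Of the macrophage markers 2 of 12 were called higher, with sums of 218 to 311 and 196 to 271 normalised CPM. The part of these cells in the results was not tested. With the libraries above 1 normalised CPM of *Krt14* left out, which leaves 1 *HSALR* mouse after vehicle, *Uvrag* and *Atg4a* were the only 2 of the 44 genes called in this comparison, and 884 of all genes tested were called against 4169 with every mouse. Scaling to *Tbp* ended all 7 lower calls, and left the 11 higher ones past the threshold.

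*Uvrag* had the largest difference of the 44. Its product binds Beclin 1 in the class III PI3-kinase complex that acts on late steps of autophagy and on endosomes. The gene lies at chr7:98886742-99141167 on the minus strand (GRCm38.p6). In control mice after vehicle it was measured at 12.4, 13.2 and 13.4 normalised CPM, and in *HSALR* mice after vehicle at 22.2, 25.5, 25.5, 27.3 and 32.3. The groups did not overlap, and the level was 2.04-fold higher in *HSALR* muscle (log2 fold change 1.03 ± 0.0996 SE, edgeR quasi-likelihood adjusted p = 3.71e-06). After AICAR the control mice had 15.8, 15.8 and 16.2 normalised CPM, and the *HSALR* mice 23.4, 25.5, 26.1, 27.2 and 29.2. The difference of 0.72 ± 0.0981 on the log2 scale was again called (edgeR adjusted p = 0.000137). These 2 calls held in every alternative analysis. With the libraries above 1 normalised CPM of *Krt14* left out, the log2 fold changes were 0.77 after vehicle and 0.73 after AICAR.

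None of the other 5 genes of the class III PI3-kinase complex was called after vehicle. *Becn1*, the Beclin 1 gene, was lower in *HSALR* mice after AICAR (log2 fold change -0.17 ± 0.0423, edgeR adjusted p = 0.0108). Its call was lost without control mouse S449 (adjusted p = 0.0548). The catalytic subunit gene *Pik3c3*, its regulatory subunit gene *Pik3r4*, *Ambra1* and *Atg14*, whose product directs the complex to autophagy, were called in no comparison. *Atg14* came nearest to the threshold among these, with an AICAR effect of 0.28 ± 0.110 in *HSALR* mice (edgeR adjusted p = 0.0685) and a genotype difference of 0.33 ± 0.128 after AICAR (0.0767).

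**Figure D2:**
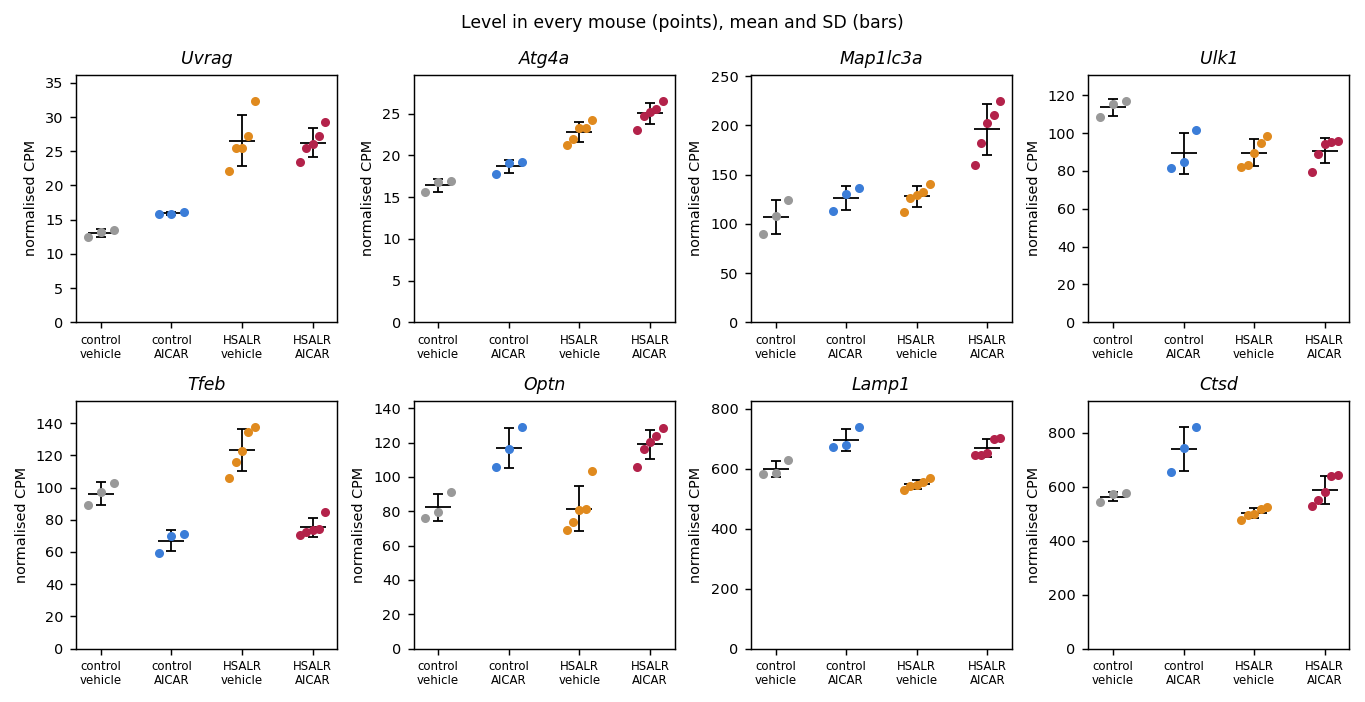
Normalised CPM (vertical axis, from 0) of 8 genes in each mouse (points) of the 4 groups, with the mean and SD as bars (n = 3 per control group and 5 per *HSALR* group). *Uvrag* and *Atg4a* separate the genotypes under both treatments, while *Tfeb*, *Optn*, *Lamp1* and *Ctsd* separate AICAR from vehicle within each genotype. The gap is narrow for *Ctsd* in *HSALR* mice, where the highest vehicle value is 525 and the lowest AICAR value 528.

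In the ULK1 complex, *Ulk1* and *Atg101* differed in opposite directions. *Ulk1*, the kinase gene, was measured at 108, 115 and 117 normalised CPM in control mice after vehicle, and at 82.3, 83.1, 89.6, 94.9 and 98.4 in *HSALR* mice. All *HSALR* values were below all control values, with a log2 fold change of -0.34 ± 0.0821 (edgeR adjusted p = 0.00637). The value was -0.07 with scaling to *Tbp* (adjusted p = 0.692) and -0.25 without the libraries above 1 normalised CPM of *Krt14* (0.390), neither being called. After AICAR the control mice had 81.5, 84.9 and 102 normalised CPM, and the *HSALR* mice 79.7, 89.0, 94.5, 95.2 and 95.7, so that the groups overlapped. AICAR lowered *Ulk1* in control mice (-0.35 ± 0.0927, adjusted p = 0.0226), a call lost when any of 4 of the 6 mice (S446, S447, S448 or S450) was left out (adjusted p up to 0.0844), with scaling to *Tbp* (0.452) and without the *Krt14* libraries (0.163). In *HSALR* mice the AICAR effect on *Ulk1* was 0.02 ± 0.0718. The difference between the 2 AICAR effects was 0.37 ± 0.117 with an unadjusted p of 0.00691 from edgeR and an adjusted p of 0.163, so it was not called.

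*Atg101*, which encodes a stabilising subunit of the complex, was measured at 22.6, 25.9 and 28.3 normalised CPM in control mice after vehicle and at 29.1, 30.4, 31.7, 39.2 and 40.5 in *HSALR* mice. The groups did not overlap (log2 fold change 0.42 ± 0.108, edgeR adjusted p = 0.00985). This call was lost without control mouse S450 (adjusted p = 0.0593), and the log2 fold change was 0.10 with the libraries above 1 normalised CPM of *Krt14* left out, which leaves 1 *HSALR* mouse after vehicle. *Atg13*, another subunit gene, was higher in *HSALR* mice after AICAR (0.20 ± 0.0625, adjusted p = 0.0315), a call lost without mouse S447, S448, S449 or S454 (adjusted p up to 0.0959). *Ulk2*, the paralogue of *Ulk1*, was lower after AICAR in *HSALR* mice (-0.21 ± 0.0705, adjusted p = 0.0398), but 8 of the 10 analyses with a mouse left out lost this call (adjusted p up to 0.0966). *Rb1cc1*, the gene of the scaffold FIP200, was called in no comparison.

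Among the genes for lipid transfer and PI3P binding, *Atg2a* was lower in *HSALR* mice under both treatments, and both calls were lost with scaling to *Tbp*. *Atg2a* encodes a protein that carries lipid into the growing membrane. It was measured at 37.0, 38.4 and 39.3 normalised CPM in control mice after vehicle, and at 27.9, 28.6, 29.0, 29.7 and 31.4 in *HSALR* mice (log2 fold change -0.38 ± 0.0646, edgeR adjusted p = 0.000502). After AICAR the difference was -0.32 ± 0.0646 (adjusted p = 0.00280). The groups did not overlap in either case. Scaled to *Tbp* the values were -0.11 (adjusted p = 0.526) and -0.36 (0.0792), and without the *Krt14* libraries -0.43 (0.0623) and -0.38 (0.0102). *Atg9a*, the gene of the lipid scramblase on the vesicles that seed the membrane, was lower in *HSALR* mice after vehicle (-0.31 ± 0.0692, adjusted p = 0.00380). This call was lost with scaling to *Tbp* (-0.04, adjusted p = 0.824) and without the *Krt14* libraries (-0.40, adjusted p = 0.0722). After AICAR its difference was -0.08 ± 0.0696.

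*Wipi1*, whose product reads PI3P, was measured at 62.4, 63.6, 64.8, 68.0 and 72.7 normalised CPM in *HSALR* mice after vehicle, and at 75.7, 78.1, 78.4, 81.8 and 82.3 after AICAR. AICAR raised it without overlap (log2 fold change 0.26 ± 0.0496, edgeR adjusted p = 0.00153). The effect was 0.14 with scaling to *Tbp* (adjusted p = 0.347) and 0.29 without the *Krt14* libraries (0.0829), neither being called. Control mice had 54.8, 61.0 and 62.1 normalised CPM after vehicle and 60.1, 61.6 and 63.0 after AICAR, a change of 0.05 ± 0.0640 that was not called. *HSALR* mice were above control mice after AICAR (0.36 ± 0.0579, adjusted p = 0.000460), a call lost with scaling to *Tbp* (0.33, adjusted p = 0.0976). The difference of the AICAR effects was 0.20 ± 0.0810 (adjusted p = 0.253). *Wipi2* was also higher in *HSALR* mice after AICAR (0.15 ± 0.0407, adjusted p = 0.0181), a call lost without control mouse S447 (adjusted p = 0.0891), and *Atg2b* was called in no comparison.

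The conjugation machinery held 5 of the 11 genes that were higher in *HSALR* mice after vehicle. Of its 11 genes, 5 were called higher and 1 lower, or 45.5% and 9.09%, beside 15.4% and 11.5% of all genes tested. *Atg4a* led the group. It encodes a protease that trims the ATG8 proteins, mainly those of the GABARAP branch, and lies at chrX:140953845-141164194 (plus strand). Levels were 15.6, 16.8 and 16.9 normalised CPM in control mice after vehicle and 21.3, 21.9, 23.3, 23.3 and 24.2 in *HSALR* mice. This 1.39-fold difference (log2 fold change 0.47 ± 0.0595, edgeR adjusted p = 3.97e-05) had its counterpart after AICAR, when control mice had 17.8, 19.1 and 19.2 normalised CPM and *HSALR* mice 23.1, 24.8, 25.3, 25.6 and 26.5 (0.42 ± 0.0593, adjusted p = 0.000178). Both calls held in every alternative.

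The E2-like enzyme gene *Atg3* was higher in *HSALR* mice after vehicle (log2 fold change 0.16) and after AICAR (0.18). *Atg12*, the ubiquitin-like protein joined to ATG5, differed by 0.31, *Atg10*, the enzyme that joins them, by 0.26, and *Atg16l1*, which positions the conjugate on the membrane, by 0.19, all after vehicle (edgeR adjusted p between 0.00552 and 0.0224). After AICAR these 3 genes had log2 fold changes of 0.19, 0.08 and 0.11, none of them called. *Atg4c*, another of the proteases, was lower in *HSALR* mice after vehicle by -0.24 (adjusted p = 0.0255), and *Atg4b* was higher after AICAR in control mice by 0.20 (adjusted p = 0.0348). Of the calls in this paragraph, *Atg3* after vehicle was lost without control mice S445 or S446 (adjusted p up to 0.0781) and after AICAR without control mouse S448 (0.0588). The calls of *Atg16l1* (S445, S446, S450 or S452), *Atg4c* (S445, S446, S450 or S459) and *Atg4b* (S445, S447, S449 or S450) were lost without any of these mice, with adjusted p up to 0.0750, 0.101 and 0.137. *Atg5*, *Atg7*, *Atg4d* and *Atg16l2* were called in no comparison.

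In the ATG8 family, *Map1lc3a* rose after AICAR in *HSALR* mice, while *Map1lc3b* was lower and *Gabarapl2* higher in *HSALR* than in control mice. *Map1lc3a* encodes LC3A and lies at chr2:155276364-155278073 (plus strand). In *HSALR* mice it was measured at 112, 126, 129, 132 and 141 normalised CPM after vehicle, and at 159, 182, 202, 211 and 225 after AICAR. The groups did not overlap, and AICAR raised the level 1.53-fold (log2 fold change 0.61 ± 0.101, edgeR adjusted p = 0.000521). Control mice had 89.5, 108 and 124 normalised CPM after vehicle and 113, 130.1 and 136 after AICAR. This change of 0.24 ± 0.131 was not called (adjusted p = 0.249), and the 2 groups overlapped.

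After AICAR, *Map1lc3a* was higher in *HSALR* than in control mice (0.63 ± 0.119, adjusted p = 0.00179), a call that held in every alternative. After vehicle the genotype difference was 0.26 ± 0.118 (adjusted p = 0.124). The difference of the AICAR effects was 0.38 ± 0.165, with an unadjusted p of 0.0374 and an adjusted p of 0.298 from edgeR. With the libraries above 1 normalised CPM of *Krt14* left out, which leaves 1 *HSALR* mouse after vehicle, the AICAR effects were 0.47 in *HSALR* mice (adjusted p = 0.136) and 0.42 in control mice.

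*Map1lc3b*, the gene of LC3B, went the other way between genotypes. It was measured at 182, 190.2 and 190.5 normalised CPM in control mice after vehicle and at 154, 159, 161, 163 and 164 in *HSALR* mice, without overlap (log2 fold change -0.23 ± 0.0547, edgeR adjusted p = 0.00673). After AICAR, control mice had 185, 187 and 189 normalised CPM and *HSALR* mice 153, 155, 159, 175 and 179 (-0.19 ± 0.0548, adjusted p = 0.0234). The call after AICAR was lost when any of 5 mice was left out (S447, S448, S449, S462 or S463, adjusted p up to 0.0727). Scaling to *Tbp* turned the difference after vehicle to 0.05. AICAR did not change *Map1lc3b* detectably, with effects of 0.03 ± 0.0477 in *HSALR* and -0.0044 ± 0.0615 in control mice.

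*Gabarapl2* was higher in *HSALR* mice under both treatments. Control mice had 68.9, 70.8 and 71.0 normalised CPM after vehicle and 73.8, 74.5 and 75.4 after AICAR. *HSALR* mice had 80.4, 81.9, 82.0, 85.9 and 90.3 after vehicle and 83.4, 85.1, 87.9, 91.0 and 91.3 after AICAR. All *HSALR* values exceeded all control values (log2 fold changes 0.26 ± 0.0480 and 0.23 ± 0.0480, edgeR adjusted p = 0.00101 and 0.00306). The first call was lost without the *Krt14* libraries (log2 fold change 0.20, adjusted p = 0.231) and the second with scaling to *Tbp* (0.19, adjusted p = 0.258).

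*Gabarap* and *Gabarapl1* were called in no comparison. *Gabarap* was measured at 127, 130.4 and 134 normalised CPM in control mice after vehicle and at 136, 137, 139, 145 and 145 in *HSALR* mice. After AICAR the values were 135, 141 and 145 in control mice and 139.8, 144, 146, 157 and 159 in *HSALR* mice. *Gabarapl1* stood at 68.5, 82.3 and 91.3 normalised CPM in control mice after vehicle, at 83.6, 84.6 and 139 in control mice after AICAR, at 74.7, 91.4, 95.03, 98.3 and 129 in *HSALR* mice after vehicle, and at 83.4, 95.9, 100.2, 115 and 136 in *HSALR* mice after AICAR. Its AICAR effect in control mice, 0.35 with an interval of -0.12 to 0.81, cannot be told from 0.

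Taken per kb of exon, the 5 mRNAs of the family summed to 445.6 ± 20.5 CPM per kb (SD, n = 3) in control mice after vehicle, to 489 ± 8.49 (n = 3) in control mice after AICAR, to 482 ± 18.3 (n = 5) in *HSALR* mice after vehicle and to 566 ± 50.1 (n = 5) in *HSALR* mice after AICAR. The share of *Map1lc3a* in this sum was 25.4% ± 1.59 in *HSALR* mice after vehicle and 33.0% ± 1.90 after AICAR, with ranges of 23.6% to 27.5% and 29.9% to 34.9%. That of *Map1lc3b* went from 19.4% ± 0.487 to 16.96% ± 0.379. In control mice the share of *Map1lc3a* was 22.9% ± 2.69 after vehicle and 24.8% ± 2.77 after AICAR. That of *Map1lc3b* was 24.6% ± 1.72 and 22.3% ± 0.244, a difference of -2.29 points beside -2.48 points in *HSALR* mice. Over the 20 shares compared, exact two-sided permutation tests gave 0.00794 for both genes between the *HSALR* groups, the smallest p that 5 against 5 mice allow, and 0.0714 after Benjamini-Hochberg adjustment, so no share passed the threshold. In comparisons of 5 with 3 mice the smallest p is 0.0179, and with 3 against 3 it is 0.1.

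**Figure D3:**
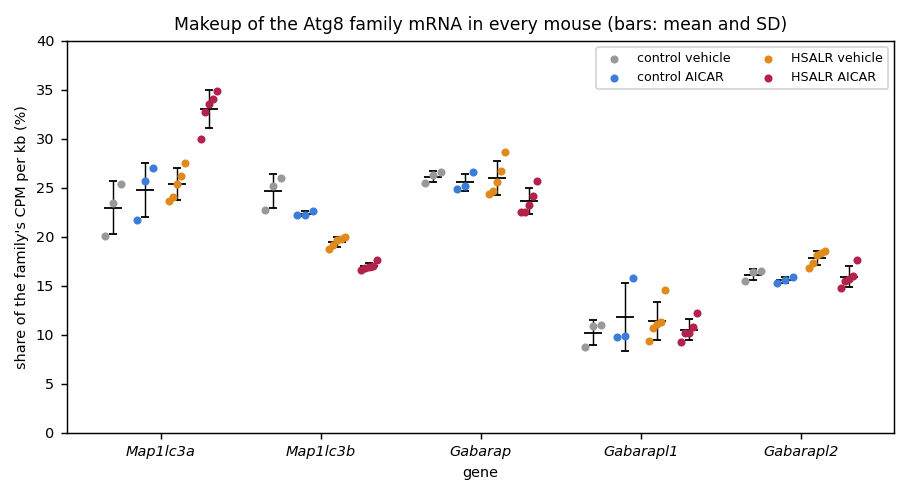
Share of each ATG8 gene in the family's summed CPM per kb (vertical axis, in %) for each mouse (points) of the 4 groups (colours), with mean and SD as bars. *Map1lc3a* takes 29.9% to 34.9% in the *HSALR* mice given AICAR and at most 27.5% in every other mouse, while *Map1lc3b* is lower in every *HSALR* mouse than in every control mouse.

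Of the cargo receptors, *Nbr1* was higher in *HSALR* mice and *Optn* was higher after AICAR. *Nbr1* encodes a receptor for ubiquitinated proteins. Its log2 fold change between *HSALR* and control mice was 0.35 ± 0.0685 after vehicle and 0.35 ± 0.0685 after AICAR (edgeR adjusted p = 0.00164 and 0.00254), with no overlap of the groups, and its AICAR effects were both 0.06. The first call was lost without the *Krt14* libraries (log2 fold change 0.30, adjusted p = 0.176) and the second with scaling to *Tbp* (0.31, adjusted p = 0.115). *Sqstm1* was measured at 407, 409.8 and 464 normalised CPM in control mice after vehicle and at 449.99, 486, 496, 507 and 545 in *HSALR* mice. The groups overlapped, and the log2 fold change of 0.22 ± 0.0756 had an adjusted p of 0.0435. This call was lost in 12 of 19 alternatives, among them RLE and upper-quartile scaling. They include 6 of 8 analyses with a mouse left out (S445, S450, S452, S453, S458 or S459, adjusted p up to 0.159). After AICAR, control mice had 387, 408 and 453.8 normalised CPM and *HSALR* mice 452.7, 454.9, 494, 500.3 and 521 (0.22 ± 0.0756, adjusted p = 0.0504). This difference passed the threshold in 8 of 19 alternatives, among them DESeq2 and limma with voom.

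*Optn* encodes optineurin, a receptor in the clearance of mitochondria and bacteria, and lies at chr2:5020521-5064399 (minus strand). *HSALR* mice had 68.8, 73.5, 80.5, 81.1 and 103 normalised CPM after vehicle and 106, 116, 120.1, 124 and 128 after AICAR. Every AICAR value exceeded every vehicle value (log2 fold change 0.55 ± 0.0972, edgeR adjusted p = 0.000884). In control mice the levels were 76.2, 79.3 and 91.0 after vehicle and 106, 116 and 129 after AICAR, again without overlap (0.51 ± 0.125, adjusted p = 0.0152). The control call was lost without mouse S445, S446 or S449 (adjusted p up to 0.0701), while that in *HSALR* mice held in every alternative. The difference of the 2 effects was 0.04, with an interval of -0.30 to 0.37, and *Optn* did not differ detectably between genotypes (-0.01 and 0.02).

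Of the other mitophagy genes, *Pink1* and *Bnip3l*, a receptor on the outer mitochondrial membrane, were lower in *HSALR* mice after vehicle (log2 fold changes -0.23 ± 0.0706 and -0.19 ± 0.0651, edgeR adjusted p = 0.0223 and 0.0417). Both calls were sensitive to single mice, *Pink1* to control mouse S450 (adjusted p = 0.141) and *Bnip3l* to any of 6 (S445, S446, S450, S451, S458 or S459, up to 0.126). Scaling to *Tbp* turned them to 0.05 and 0.09. *Bnip3*, a related receptor, was called in no comparison. Its AICAR effect in control mice was -0.36 ± 0.152 (adjusted p = 0.135), and it ranged from 155 to 207 normalised CPM in control mice after AICAR and from 187 to 315 after vehicle.

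*Tfeb* fell after AICAR in both genotypes. It encodes the main transcription factor of lysosomal and autophagy genes and lies at chr17:47737037-47792416 (plus strand). *HSALR* mice had 106, 116, 123, 135 and 137 normalised CPM after vehicle and 70.5, 72.5, 73.6, 74.3 and 85.0 after AICAR. The groups did not overlap, and *Tfeb* fell by 0.71 ± 0.0789 on the log2 scale, or 1.64-fold (edgeR adjusted p = 2.01e-05). Control mice had 88.9, 97.3 and 103 normalised CPM after vehicle and 59.6, 70.1 and 71.3 after AICAR, a fall of 0.52 ± 0.102 (-0.52 on the log2 scale, adjusted p = 0.00393).

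The call in *HSALR* mice held in every alternative, with log2 fold changes from -0.82 to -0.49, and that in control mice was lost with scaling to *Tbp* alone. The difference of the 2 effects, -0.19 with an interval of -0.46 to 0.08, was not called. *Tfeb* was also higher in *HSALR* than in control mice after vehicle (0.36 ± 0.0917, adjusted p = 0.00964), but the call was lost without control mouse S450 (adjusted p = 0.0541), and the value was 0.07 with the libraries above 1 normalised CPM of *Krt14* left out. After AICAR the genotype difference was 0.17 ± 0.0913 (adjusted p = 0.205). The relative *Tfe3* was called in no comparison, at 11.7 to 15.0 normalised CPM in all 16 mice.

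While *Tfeb* mRNA fell, the lysosomal genes *Lamp1* and *Ctsd* rose after AICAR. *Lamp1* was measured at 529, 543, 544, 555 and 569 normalised CPM in *HSALR* mice after vehicle and at 646, 646, 651, 701 and 704 after AICAR (log2 fold change 0.29 ± 0.0466, edgeR adjusted p = 0.000438). This call was lost with scaling to *Tbp* (0.17, adjusted p = 0.168) and without the *Krt14* libraries (0.29, adjusted p = 0.0941). Control mice had 582, 585 and 629 after vehicle and 673, 678 and 738 after AICAR (0.22 ± 0.0602, adjusted p = 0.0263). The groups did not overlap in either genotype. Without mouse S445, S446 or S449 the control call was lost (adjusted p up to 0.102), as it was without the *Krt14* libraries (0.101).

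*Ctsd* rose in control mice from 543, 571 and 576 normalised CPM to 656, 742 and 820.1 (log2 fold change 0.39 ± 0.0870, edgeR adjusted p = 0.00823). In *HSALR* mice it rose from 478, 496, 499, 518 and 525 to 528, 553, 580.2, 641 and 642 (0.23 ± 0.0673, adjusted p = 0.0218), and this call was lost without S454, S455 or S459 (adjusted p up to 0.0643), with scaling to *Tbp* (0.408), with an epidermal score as a covariate (0.102) and without the *Krt14* libraries (0.508). The control call was also lost without those libraries (0.112). *HSALR* mice were below control mice after AICAR (-0.33 ± 0.0770, adjusted p = 0.00722), a call lost without the *Krt14* libraries (0.0645). The effects of AICAR in the 2 genotypes differed by -0.17, with an interval of -0.40 to 0.07. *Lamp2*, the partner of *Lamp1*, and *Ctsl*, the gene of the protease cathepsin L, were called in no comparison.

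In counts, 5 of the 44 genes rose and 2 fell after AICAR in *HSALR* mice, where 13.7% of all genes tested were called higher and 13.0% lower. In control mice 4 rose and 2 fell, where 8.40% were called higher and 4.77% lower. These shares of 11.4% higher in *HSALR* mice and 9.09% in control mice lie near the background. The share called lower was 4.55% in each genotype, below the 13.0% in *HSALR* mice and near the 4.77% in control mice. The comparison of genotypes after AICAR called 9 of the 44 higher and 4 lower, against 12.2% and 9.64% of all genes tested. Of these 13 calls, *Uvrag*, *Atg4a*, *Map1lc3a* and *Ctsd* stayed past the threshold with scaling to *Tbp*. With the libraries above 1 normalised CPM of *Krt14* left out, *Optn* and *Tfeb* were the genes still called for AICAR in each genotype. For *HSALR* against control mice after AICAR, with every mouse, 2 of the 4 endothelial markers were called lower, with sums of 195 to 213 normalised CPM in *HSALR* mice and 241 to 262 in control mice, and 5 of the 8 epidermal markers were called lower. In that comparison 1 of 12 macrophage markers was called higher and all 12 had a log2 fold change above 0 (median 0.32, summed levels of 239.8 to 363 normalised CPM in *HSALR* and 199 to 233 in control mice). None of the 6 adipocyte markers was called, and all 6 were above 0 (median 0.35, sums of 228 to 356 and 173 to 299.97 normalised CPM). For AICAR in *HSALR* mice, 2 of 4 endothelial markers were called higher, 2 of 12 macrophage markers higher and 1 lower, and 0 of 6 adipocyte markers either way. These 6 adipocyte markers all had a log2 fold change above 0 (median 0.28, highest 1.09). All 8 epidermal markers and 2 of 4 fibroblast markers were called lower, with fibroblast sums of 893 to 1199 normalised CPM after AICAR and 1133 to 1553 after vehicle. For AICAR in control mice 1 of 12 macrophage markers was called higher, and no endothelial, adipocyte, epidermal or fibroblast marker was called. The part of these cells in the results was not tested beyond the alternatives given.

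The 4 genes called the same way by AICAR in both genotypes were *Optn*, *Lamp1* and *Ctsd* (higher) and *Tfeb* (lower). The 7 called the same way between genotypes under both treatments were *Uvrag*, *Atg3*, *Atg4a*, *Gabarapl2* and *Nbr1* (higher in *HSALR* mice) and *Atg2a* and *Map1lc3b* (lower). No mouse entered both AICAR effects. Across the 44 genes, the AICAR effects in the 2 genotypes had a Pearson r of 0.69 and a Spearman rho of 0.55, and 28 had the same sign. Across all 15487 genes r was 0.25 and rho 0.47, so that by rho the 44 genes lay close to all genes. Pearson r is open to extreme values. The epidermal markers had AICAR effects down to -11.8 in *HSALR* mice and no lower than -0.21 in control mice. Their part in r was not tested. The genes were measured in the same libraries and are not independent, so these values are a description.

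The test of whether the AICAR effect differed between genotypes called 0 of the 44 genes higher and 0 lower with edgeR, against 0.207% and 0.484% of all genes tested. At an unadjusted p under 0.05 there were 7 (*Ulk1*, *Uvrag*, *Atg9a*, *Wipi1*, *Atg4b*, *Map1lc3a* and *Bnip3l*), and 2324 of the 15487 genes tested did so. DESeq2 and limma with voom also called 0. With the libraries above 1 normalised CPM of *Krt14* left out, 0 of the 44 had an unadjusted p under 0.05.

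**Figure D4:**
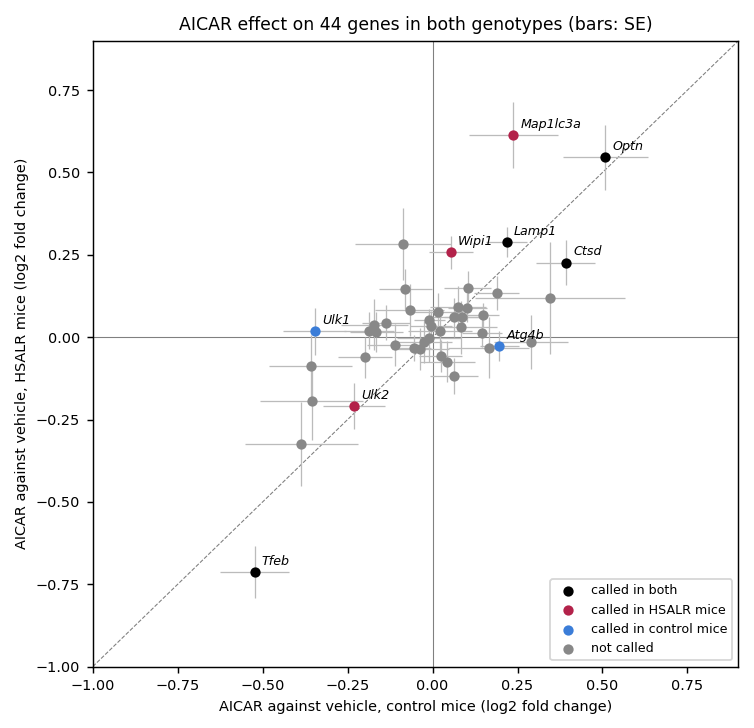
Log2 fold change of each of the 44 genes after AICAR in control mice (horizontal axis) and in *HSALR* mice (vertical axis), with SE bars, a dashed line of equal effect, and colours for the genotype in which the gene was called. *Tfeb* (-0.52 and -0.71) and *Optn* (0.51 and 0.55) lie far from the origin near the line, and *Map1lc3a* (0.24 and 0.61) lies above it.

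The rest of the pathway was followed through 5 lists of other genes. After AICAR the lists of the lysosomal membrane, the proton pump and the TFEB regulators held the larger shares of higher genes. Of 21 other lysosomal membrane genes tested, 12 rose and 0 fell in *HSALR* mice (median log2 fold change 0.24) and 5 rose and 0 fell in control mice (median 0.22). Of the 17 genes of the V-ATPase, the pump that acidifies the lysosome, 8 rose and 0 fell in *HSALR* mice (median 0.17) and 5 rose and 0 fell in control mice (median 0.14). Of the 13 genes of the TFE family and its regulators, 7 rose and 1 fell in *HSALR* mice (median 0.41) and 3 rose and 0 fell in control mice (median 0.24). Of all genes tested, 13.7% were called higher and 13.0% lower in *HSALR* mice and 8.40% and 4.77% in control mice, with medians of -0.02 and -0.0084. With a mouse left out, the membrane, V-ATPase and TFE lists had 10 to 13, 6 to 9 and 5 to 7 higher in *HSALR* mice. In control mice they had 4 to 6, 3 to 5 and 3 to 4 higher.

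In the membrane list *Cd63*, a tetraspanin of late endosomes and lysosomes, rose in *HSALR* mice from 58.4 ± 4.47 to 91.1 ± 2.93 normalised CPM (SD, n = 5) and in control mice from 49.6 ± 1.78 to 83.3 ± 7.37 (n = 3), with log2 fold changes of 0.64 and 0.75 (edgeR adjusted p = 3.15e-06 and 3.64e-05). *Npc1*, the cholesterol exporter of the lysosome, rose by 0.80 in *HSALR* mice. Its means in control mice were 25.6 ± 0.374 normalised CPM after vehicle and 35.5 ± 9.67 after AICAR. *Atp6v1a*, the catalytic subunit gene of the pump, rose by 0.58 in *HSALR* and 0.62 in control mice. *Flcn*, whose product folliculin controls TFEB through the Rag GTPases, rose from 62.2 ± 6.07 to 123 ± 31.5 normalised CPM in *HSALR* mice and from 68.2 ± 5.16 to 144 ± 23.6 in control mice (log2 fold changes 0.99 and 1.08). Its partner gene *Fnip2* rose by 0.98 and 1.45, and the Rag GTPase genes *Rragb* in *HSALR* mice by 1.1 and *Rragc* in control mice by 0.56. Their means were also higher after AICAR in the other genotype. *Rragb* went from 3.75 to 5.92 normalised CPM in control mice and *Rragc* from 38.8 to 53.5 in *HSALR* mice. In the membrane, V-ATPase and TFE lists, 0 genes were called for a difference of AICAR effects, against 0.207% higher and 0.484% lower of all genes tested.

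Among 41 other lysosomal hydrolases and cofactors, 11 rose and 3 fell in *HSALR* mice and 5 rose and 1 fell in control mice after AICAR, with medians of 0.07 and -0.02. *Dpp7*, a lysosomal peptidase gene, rose by 0.40 in *HSALR* and 0.87 in control mice. Of 35 other autophagy genes, 11 rose and 1 fell in *HSALR* mice and 4 rose and 1 fell in control mice. With a mouse left out, 6 to 12 hydrolases were higher in *HSALR* mice and 2 to 5 in control mice. The other autophagy genes then had 9 to 12 and 2 to 5 higher. The shares called higher in control mice, 12.2% of the hydrolases and 11.4% of the other autophagy genes, lie near the 8.40% of all genes tested, and those in *HSALR* mice were 26.8% and 31.4% beside 13.7%. *Epg5*, a tether between autophagosome and lysosome, rose by 0.63 and 0.39, and *Plekhm1*, an adaptor at the same step, by 0.69 in *HSALR* mice. The means of *Plekhm1* in control mice were 29.0 ± 0.797 normalised CPM (SD) after vehicle and 38.1 ± 10.7 after AICAR. With the libraries above 1 normalised CPM of *Krt14* left out, which leaves 1 *HSALR* mouse after vehicle that was assumed to vary like the others, the calls for AICAR in *HSALR* mice dropped to 2 of 21, 0 of 17 and 1 of 13 for membrane, pump and TFE lists. Their medians were then 0.30, 0.21 and 0.40, and 871 genes were called in all against 4121 with every mouse. Scaling to *Tbp* left 4, 1 and 6 higher. In the same comparison, the hydrolases had 1 higher without the *Krt14* libraries and 1 higher with scaling to *Tbp*, and the other autophagy genes 2 and 3. For AICAR in control mice, the other autophagy genes had 0 higher and the hydrolases 2 when the compared groups alone were fitted.

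Between genotypes after vehicle, the V-ATPase list had 6 genes higher and 1 lower in *HSALR* mice, the hydrolases 6 and 7, the other membrane genes 3 and 3, the other autophagy genes 4 and 3, and the TFE list 2 and 1. The shares called higher were 35.3%, 14.6%, 14.3%, 11.4% and 15.4% in this order, beside 15.4% of all genes tested, and all but that of the V-ATPase lie at or below it. With a mouse left out, 5 to 6, 3 to 6, 1 to 4, 2 to 5 and 2 were higher in the same order. Scaling to *Tbp* gave 13, 16, 9, 18 and 5 higher and 0 lower in each list. Without the *Krt14* libraries 2, 0, 1, 1 and 1 were higher. *Vmp1*, which acts in the supply of membrane at the endoplasmic reticulum, was higher by 0.50, and *Epg5* was lower by -0.56. *Rcan1*, an inhibitor of the calcineurin that dephosphorylates TFEB, was higher by 0.77, and the Rag GTPase gene *Rragd* by 0.46 after vehicle and 0.34 after AICAR. *Cd68*, higher by 0.77 in the membrane list, is also a macrophage marker. After AICAR the other autophagy genes had 10 higher and 2 lower in *HSALR* mice, the hydrolases 5 and 8, the membrane genes 3 and 2, the V-ATPase 3 and 1, and the TFE list 1 and 0. Beside 12.2% of all genes tested, the shares called higher were 28.6%, 12.2%, 14.3%, 17.6% and 7.69%. With a mouse left out, 6 to 10, 2 to 6, 1 to 3, 3 to 5 and 1 to 3 were higher in this order. Scaling to *Tbp* left 3, 1, 0, 0 and 0 higher in this order, with 3 hydrolases lower, and without the *Krt14* libraries 5, 4, 1, 2 and 1 were higher.

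**Figure D5:**
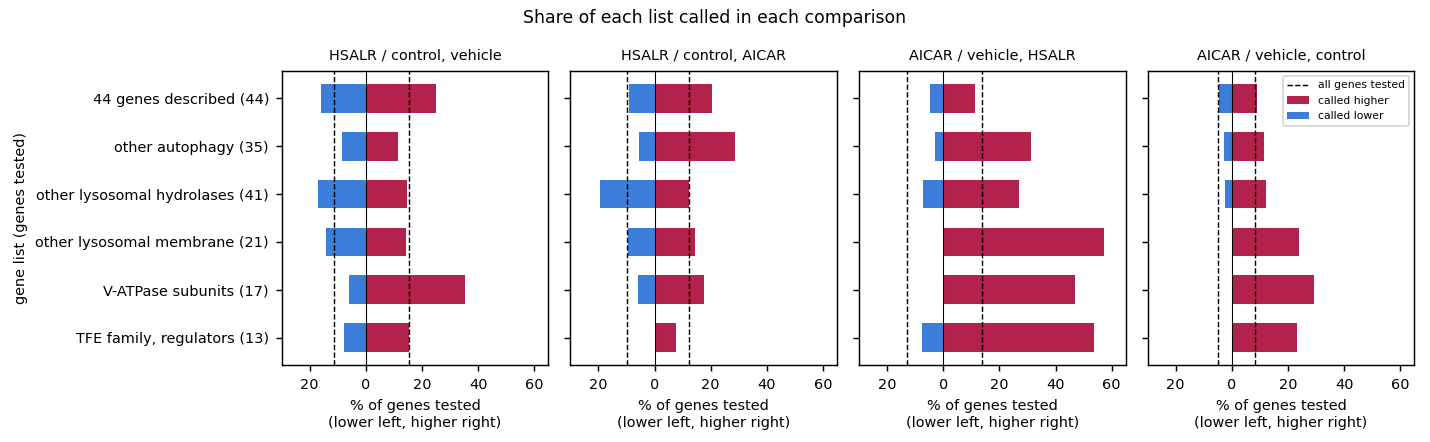
Share of the genes tested (horizontal axis, in %) called higher (red, to the right) and lower (blue, to the left) in each of 6 lists and 4 comparisons, with the share among all 15487 genes as dashed lines. The membrane, V-ATPase and TFE lists have the largest shares called higher after AICAR in *HSALR* and in control mice. The other autophagy genes (31.4% and 11.4%) and the hydrolases (26.8% and 12.2%) also stand above the dashed line. The 44 genes are at 11.4% and 9.09% higher against 13.7% and 8.40%.

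The longer motif TCACGTG or CACGTGA was also counted in the promoters of these lists, without regard to their changes. It was found in 4 of 11 genes with a promoter in the TFE list, in 4 of 12 of the V-ATPase, in 10 of 34 hydrolases, in 4 of 17 membrane genes and in 6 of 29 other autophagy genes, against 4.29% of all genes.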

How the data were processed

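RNA of *gastrocnemius* muscle from 16 mice was sequenced with stranded TruSeq libraries. The authors mapped single-end reads to mm10 with STAR 2.5.2a, kept 1 location per read, and counted with QuasR the reads starting within exons of RefSeq genes. Deposited were the raw counts of 24454 genes, without normalization. Of these, 24374 identifiers matched a RefSeq symbol and 80 did not. The groups followed the sample titles. Libraries of a group differed by more than sampling noise (chi-square per degree of freedom 25.1 to 141). No column of another sample was used.

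Differences were tested on the counts with edgeR 4.0.16 under R 4.3.3 (TMM scaling, filterByExpr, glmQLFit and glmQLFTest, 1 mean per group, all 16 mice), with Benjamini-Hochberg adjustment over 15487 genes and a threshold of 0.05. Intervals are at 95%. The script was tested on simulated data. Alternatives were other scalings (RLE, upper quartile, *Tbp*), other filters (none, or 10 reads in every library), robust dispersion, DESeq2 1.42.0, limma 3.58.1 with voom, fits without the groups outside a comparison, and omission of single mice. An epidermal score as a covariate and leaving out libraries above 1 normalised CPM of *Krt14* were added after seeing the data. Shares of the ATG8 family were compared by exact permutation over mice. Positions and promoters come from RefSeq (GRCm38.p6, the assembly of mm10).

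The 44 genes, the other lists and the tests were chosen with earlier results of these data known. Each of the 44 past the threshold is named, with values in every mouse from a log2 fold change of 0.5, or for the 4 largest of a comparison, and always for the ATG8 family, *Ulk1*, *Tfeb* and *Sqstm1*. From each other list at most 3 genes per comparison are named, those past the threshold with the largest log2 fold change and a mean count of at least 50.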

Additional observations from a re-analysis of the deposited data

Results flagged for a closer look

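Of 88 sets of 5 values (44 genes in 2 *HSALR* groups), 8 held a mouse that stood apart from the other 4, where chance alone gives about 1 in 20, or 4.4. *HSALR* mouse S458 after vehicle was low for *Ulk2* (168 normalised CPM, others 208 to 214) and for *Rb1cc1* (94.1, others 129 to 137), both genes of the ULK1 complex. In the same group S452 was high for *Atg14* (17.8, others 14.2 to 15.1) and S459 was low for *Atg16l2* (3.09, others 4.02 to 4.36). After AICAR, *HSALR* mouse S460 was high for *Atg101* (37.1, others 32.0 to 32.8), *Ambra1* (34.0, others 27.5 to 28.2) and *Tfeb* (85.0, others 70.5 to 74.3), and S463 for *Atg5* (24.1, others 21.9 to 22.5). The control groups, of 3 mice each, were too small to be examined in this way.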

How the results depend on the processing

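Of 44 called values of single genes, 7 stayed past the threshold in every alternative and 13 in every planned one. Scaling to *Tbp* moved the median log2 fold change of all genes tested by more than 0.1, to 0.28 for genotype after vehicle, -0.13 for AICAR in *HSALR* mice, 0.19 for AICAR in control mice and -0.32 for the difference of AICAR effects. Under it, 21 of the 44 genes were higher and 0 lower for genotype after vehicle (median 0.28), 3 and 1 for genotype after AICAR (0.041), 2 higher for AICAR in *HSALR* mice (median -0.089) and 0 lower in control mice (0.22), and the difference of effects had a median of -0.29. It turned *Atg4c* to 0.033, *Map1lc3b* to 0.046, *Bnip3l* to 0.086 and *Pink1* to 0.047 after vehicle. Fits to the compared groups alone gave 4 lower for genotype after vehicle, and 2 higher and 1 lower for AICAR in control mice, from fewer mice. Upper-quartile scaling gave 2 higher and 5 lower there (median -0.037). Without a filter, 1 was lower for AICAR in *HSALR* mice. Without the libraries above 1 normalised CPM of *Krt14*, 2 were higher and 0 lower for genotype after vehicle (median 0.038), 2 lower for genotype after AICAR, and 1 higher and 1 lower for AICAR in each genotype, from fewer mice. With single mice left out, genotype after vehicle gave 7 to 11 higher and 4 to 7 lower (medians -0.011 to 0.067, the fewest without control mouse S450), genotype after AICAR 2 to 4 lower (2 without S449), AICAR in *HSALR* mice 1 to 2 lower, and AICAR in control mice 1 to 4 higher (1 without S445 or S449) and 1 to 3 lower (medians -0.011 to 0.031). The difference of effects had medians of 0.0025 to 0.069. Other causes of these shifts were not tested. No paired analysis was possible because the replicate labels are mouse identifiers that groups do not share.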
